A study of Bos taurus with 8 samples.

Results

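Transcripts of the nicotinic acetylcholine receptor of muscle and of the postsynaptic side of the neuromuscular junction were read on 8 two-colour microarrays of cultured bovine muscle cells. The 10 genes were CHRNA1, CHRNB1, CHRND, CHRNE, CHRNG, MUSK, RAPSN, AGRN, ERBB3, and HOMER1, chosen by name and not by any measured value. A probe was taken for a gene when the RefSeq accession on the array carried its symbol, and 8 of the 10 genes had such a probe, 1 each, out of 21475 probes in all. RAPSN and AGRN were not analysed here.

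Cells came from the semitendinosus, a muscle of the hindlimb, of bulls aged 15 months. The bulls were of Limousin (LIM), Hereford (HER), and Holstein-Friesian (HF) cattle, the former 2 being beef breeds and HF a dairy breed used as the reference, with 4 bulls per breed. None of the cultures was treated, and all were collected while proliferating in serum medium at 80% confluence. Preplating, a step that removes fast-adhering cells, had enriched but not purified the myoblasts. On 4 arrays RNA of HER cells (Cy3, the green dye) was set against RNA of HF cells (Cy5, the red dye), and on the other 4 RNA of LIM cells (Cy5) against RNA of HF cells (Cy3), each array being a biological replicate. Each comparison had its own slide, so within LIM or within HER the breed cannot be told apart from its slide or its dye order, and both comparisons share HF as the control. The sources used here do not say which HF bull each array carried. With 4 HF bulls for 8 arrays, the same HF bull may be on both slides. Averages and tests over both comparisons take all 8 arrays as independent, so their SE and p may be too small. Replicates are named below by breed and number.

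The muscle acetylcholine receptor is a pentamer that opens a cation channel when the motor nerve releases acetylcholine. Before innervation, the pentamer is built from alpha, beta, gamma, and delta subunits, and at the mature junction the epsilon subunit takes the place of gamma. Subunit genes are switched on when myoblasts leave the cell cycle and fuse, under myogenic factors such as MYOG, and are later restricted to the nuclei beneath the synapse. The kinase MUSK, driven by the nerve protein agrin, gathers receptors through the scaffold rapsyn, while neuregulin acts on ERBB receptors, among them ERBB3. Bulk cultures were measured, so fewer cells of a type and less RNA per cell cannot be told apart in any value below.

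Values are log2 ratios of beef breed over HF, so that 1 stands for a doubling, and are given in the order of replicates 1 to 4. A gene was called when its limma p, adjusted by the Benjamini-Hochberg method over all 17631 probes tested, was under 0.05 and its fold change at least 1.3. All 8 measured genes were tested, and 7 of them were well above background in all 16 channels (8 arrays with 2 dyes each). MUSK was well above background in 10. On every array, all 8 genes had a higher signal in the beef breed culture than in the HF culture. For MUSK this includes HER replicates 1 and 3, on which neither channel was well above background. Of all tested probes, 11.7% were higher on all 8 arrays and 16.9% were lower on all 8. In LIM relative to HF, 6 of the 8 genes were called higher, against 16% of all probes. In HER relative to HF, 6 of the 8 were called higher, against 10.4% of all probes, and 1 of these 6, MUSK, was well above background on 2 of the 4 HER arrays in the HER channel and on 1 in the HF channel. CHRNA1, CHRNB1, CHRNE, and CHRNG were called higher in both comparisons, as were 7.54% of all probes. With the threshold of the study's methods, which leaves p unadjusted, limma called 7 of the 8 higher in both, against 10.8% of all probes. For the beef effect, the mean of both comparisons, in which the dyes are balanced, all 8 genes were called higher, against 17.7% of all probes. The median beef effect was 1.24 for the 8 genes and -0.04 for all tested probes. CHRNA1, ERBB3, and HOMER1 belong to a table of the study that was chosen on these same cultures, so their direction is not independent evidence. For ERBB3 the study also reported higher expression in beef breed cultures by qPCR.

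**Figure D1:**
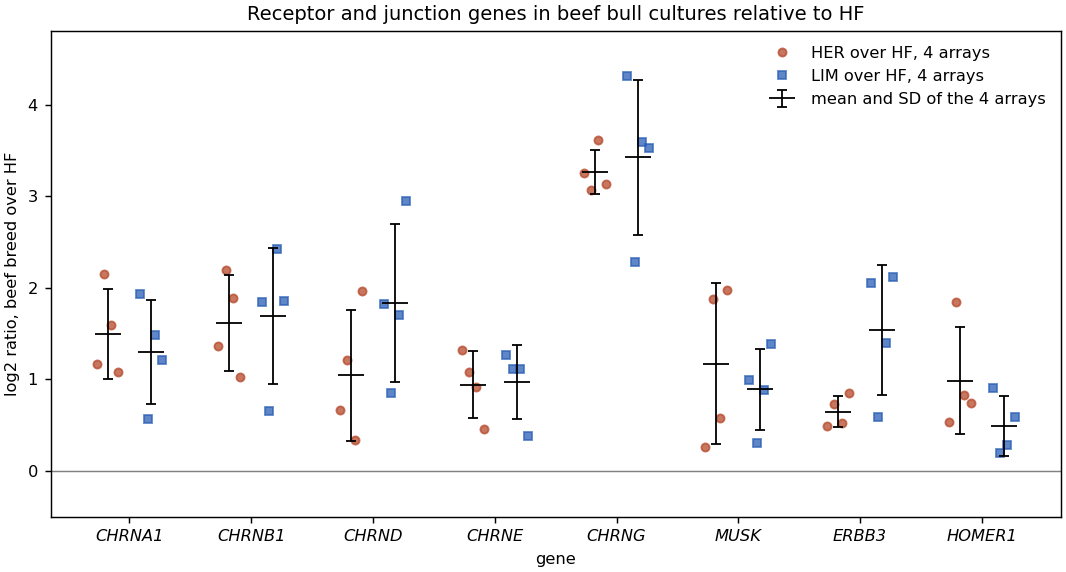
Log2 ratio of beef breed over HF for the 8 measured genes (horizontal axis), with circles for the 4 HER arrays, squares for the 4 LIM arrays, and bars for the mean and SD of each set of 4. All points lie above 0, and CHRNG stands above the other genes in both comparisons.

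CHRNG, which encodes the gamma subunit of the embryonic receptor, had the largest difference of the 8 genes. The log2 ratio was 3.25, 3.07, 3.61, and 3.14 on the HER arrays. On the LIM arrays it was 4.31, 2.28, 3.59, and 3.52. The lowest of these, LIM replicate 2, was still a log2 of 2.28 above HF, and the ranges of both comparisons overlapped. The mean was 3.27 ± 0.24 (SD, n = 4) in HER, a 9.62-fold difference (limma adjusted p = 0.00154), and 3.42 ± 0.84 (SD, n = 4) in LIM, a 10.74-fold difference (limma adjusted p = 0.000517). The beef effect was 3.35 with an SE of 0.19 (limma adjusted p = 8.29e-05) and lay at percentile 99.8 of all tested probes. In processed signal, the brightness after background and dye correction by the scanner software, CHRNG ranged from 95.4 to 795 in the HF channel and from 1164 to 9152 in the beef channel, so that no beef culture reached down to any HF culture.

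CHRNA1, the alpha 1 subunit that carries the acetylcholine binding sites, gave log2 ratios of 1.17, 2.15, 1.60, and 1.08 on the HER arrays. On the LIM arrays it gave 1.93, 0.57, 1.48, and 1.21. HER replicate 2 was the highest and LIM replicate 2 the lowest of the 8. The means were 1.5 ± 0.49 (SD, n = 4; limma adjusted p = 0.00601) in HER and 1.3 ± 0.57 (SD, n = 4; limma adjusted p = 0.00456) in LIM, and the beef effect was 1.40 with an SE of 0.17, or 2.63-fold. The signal was 170 to 503 in HF channels and 381 to 1545 in beef channels. These ranges overlapped across arrays although the beef channel was the brighter one on each array.

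CHRNB1, the beta 1 subunit, which completes the receptor and binds rapsyn, was second to CHRNG in beef effect. The log2 ratio was 1.36, 2.19, 1.89, and 1.02 on the HER arrays. It was 1.84, 0.66, 2.42, and 1.86 on the LIM arrays, again with LIM replicate 2 as the lowest of all. The means were 1.62 ± 0.52 (SD, n = 4; limma adjusted p = 0.00769) in HER and 1.70 ± 0.74 (SD, n = 4; limma adjusted p = 0.00300) in LIM. The beef effect was 1.66 with an SE of 0.20, a 3.15-fold difference.

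CHRNE, the epsilon subunit of the adult receptor, was also higher in both beef breeds, by the smallest amount among the subunits. The log2 ratio was 1.32, 1.08, 0.91, and 0.46 on the HER arrays. It was 1.27, 1.11, 1.12, and 0.38 on the LIM arrays, where 3 arrays lay close together and replicate 4 lay below them. The means were 0.94 ± 0.36 (SD, n = 4; limma adjusted p = 0.0104) in HER and 0.97 ± 0.40 (SD, n = 4; limma adjusted p = 0.00486) in LIM, and the beef effect of 0.96 with an SE of 0.13 corresponds to 1.94-fold. The HER call was lost without HER replicate 1 (mean 0.82, limma adjusted p = 0.0515) or without HER replicate 2 (mean 0.90, limma adjusted p = 0.0506).

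CHRND, the delta subunit, is encoded next to CHRNG, with 0 annotated genes between them on the ARS-UCD2.0 assembly. The log2 ratio of CHRND was 0.66, 1.21, 0.34, and 1.97 on the HER arrays. It was 1.83, 0.85, 1.71, and 2.95 on the LIM arrays. In both sets replicate 4 was the highest, and the HER values spread over a wide range. The mean of 1.83 ± 0.86 (SD, n = 4) in LIM was called (limma adjusted p = 0.00485), whereas that of 1.04 ± 0.71 (SD, n = 4) in HER was not (limma adjusted p = 0.0566). That HER value passed once LIM replicate 2 (limma adjusted p = 0.0482) or LIM replicate 4 (limma adjusted p = 0.0265) was left out of the shared fit. The beef effect was 1.44 with an SE of 0.24, or 2.71-fold (limma adjusted p = 0.00195).

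**Figure D2:**
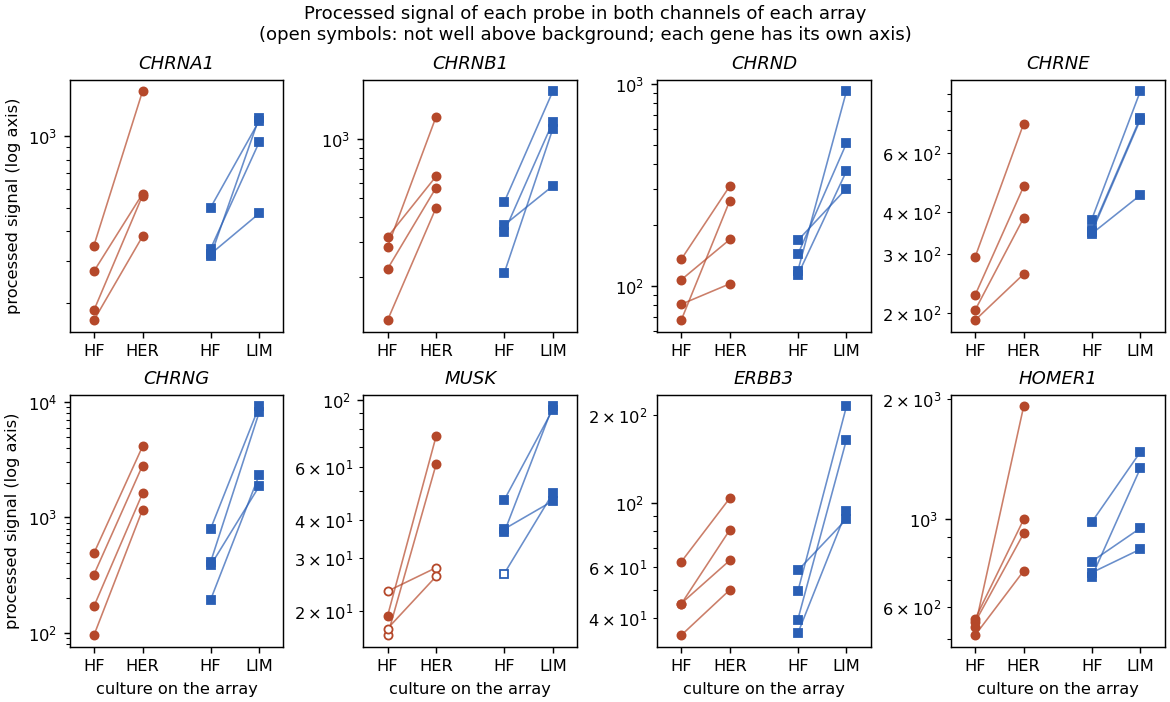
Processed signal (vertical log axis, in scanner units, a separate axis for each gene) of each measured gene in the HF channel and in the beef breed channel, with a line joining both channels of an array, circles for HER arrays, and squares for LIM arrays. Every line rises from HF to the beef breed, and the open symbols, which mark channels not well above background, occur for MUSK alone.

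The 5 subunit genes were then set against each other on the same array, which asks whether their log2 ratios differed and says nothing of their levels. Of 10 pairs, 5 differed in an exact two-sided sign-flip permutation test over the 8 arrays, with p adjusted over the 10 pairs. CHRNG exceeded CHRNA1 by 1.95 ± 0.46, CHRNB1 by 1.69 ± 0.50, CHRND by 1.91 ± 0.86, and CHRNE by 2.39 ± 0.66 (log2, mean ± SD, n = 8 arrays). Each of these held on 8 of 8 arrays, with an exact p of 0.0078125, the smallest that 8 arrays allow, and an adjusted p of 0.0195. This test takes the 8 arrays as independent, although the HF cultures came from 4 bulls. The gamma subunit of the embryonic receptor thus differed more from HF than the epsilon subunit of the adult receptor did, in LIM by 2.45 and in HER by 2.32. CHRNB1 exceeded CHRNE by 0.70 ± 0.66 on 7 of 8 arrays (exact permutation p = 0.0234, adjusted p = 0.0469), a call that was lost when any array but LIM replicate 2 was left out, at differences of 0.59 to 0.79. It was also lost with both normexp settings, at 0.32 and 0.51, and without background correction, at 0.57. Among the other 5 pairs, the mean difference ranged in size from 0.04 to 0.48, and the smallest adjusted p of the exact permutation test was 0.10. The 4 pairs with CHRND had the largest SDs, from 0.86 to 1.10, and CHRND exceeded CHRNA1 on 4 arrays and lay under it on the other 4.

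**Figure D3:**
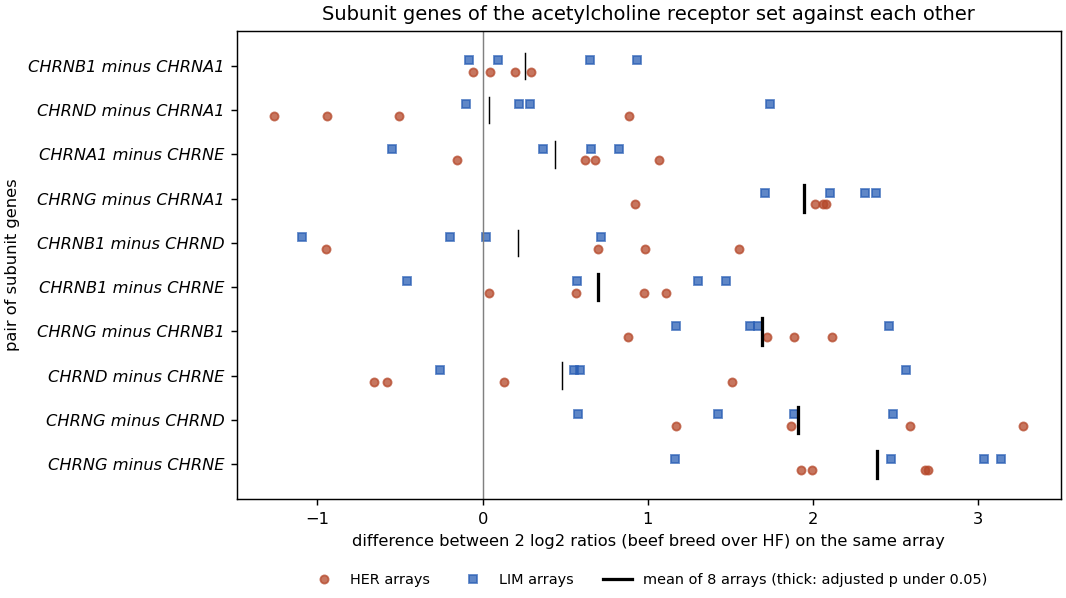
Difference between the log2 ratios of paired subunit genes on the same array (horizontal axis) for all 10 pairs, turned so that each mean is positive, with circles for HER arrays, squares for LIM arrays, and a bar for the mean of 8 arrays (thick where the adjusted p is under 0.05). In the 4 pairs with CHRNG all points lie to the right of 0, and in the pairs of CHRND with the other subunits apart from CHRNG they lie on both sides.

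MUSK, the receptor tyrosine kinase that organizes the postsynaptic membrane, was the dimmest of the 8 genes. Its probe was well above background in 4 LIM channels and 3 of the HF channels beside them, but in 2 HER channels and 1 of the HF channels beside those, with signals from 16.7 to 95.0. The log2 ratio was 0.26, 1.88, 0.57, and 1.97 on the HER arrays. It was 0.99, 0.31, 0.88, and 1.38 on the LIM arrays. The 2 high HER values, of replicates 2 and 4, were those of the arrays on which the HER channel was well above background, while on HER replicates 1 and 3 neither channel was. The mean in HER was 1.17 ± 0.88 (SD, n = 4; limma adjusted p = 0.0271) and that in LIM was 0.89 ± 0.44 (SD, n = 4), not called at a limma adjusted p of 0.0517. The beef effect of 1.03 with an SE of 0.22 was called (limma adjusted p = 0.00529). It fell to 0.25 and was not called when the background was corrected with normexp and outlying local backgrounds were replaced. The HER call was also lost without HER replicate 2 (mean 0.93, limma adjusted p = 0.114) or without HER replicate 4 (mean 0.90, limma adjusted p = 0.0852), and without background correction (mean 0.43, limma adjusted p = 0.0621). It was lost as well with HER fitted alone and with the methods' t-test. The LIM value passed without HER replicate 1 (limma adjusted p = 0.0370) or HER replicate 4 (limma adjusted p = 0.0446).

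ERBB3, a receptor for neuregulin that signals through its partner ERBB2, was higher by a log2 of 2.06, 0.59, 1.40, and 2.12 on the LIM arrays. On the HER arrays the log2 ratio was 0.49, 0.73, 0.52, and 0.85. The HER values lay close together, and 3 of the 4 LIM values were above all of them. The LIM mean of 1.54 ± 0.71 (SD, n = 4), or 2.91-fold, was called (limma adjusted p = 0.00206), and the HER mean of 0.65 ± 0.17 (SD, n = 4), or 1.57-fold, was not (limma adjusted p = 0.0747), although it passed without LIM replicate 2 (limma adjusted p = 0.0258). The probe was printed as 2 spots per array, and these disagreed for ERBB3 more than for the other 7 genes. On the HER arrays the first spot averaged 1.12 and the second 0.18, with the first higher on 4 of 4, while on the LIM arrays they averaged 1.37 and 1.71. All 16 spot values were above 0. The beef effect was 1.09 with an SE of 0.17 (limma adjusted p = 0.00115), and it was 0.31, no longer called, with normexp on local backgrounds as measured. Under the 3 other background settings the LIM mean was 0.47 to 0.81, called in each, and the HER mean was 0.14 to 0.36, called in none. Processed signals were low, at 35.0 to 62.6 in HF channels and 50.2 to 215 in beef channels.

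HOMER1 encodes a scaffold protein that ties calcium channels and receptors together beneath the membrane. By the probe read here, it showed the smallest beef effect of the 8 genes, 0.74 with an SE of 0.15 (1.67-fold, limma adjusted p = 0.00490). The log2 ratio was 0.54, 1.84, 0.83, and 0.74 on the HER arrays. It was 0.90, 0.20, 0.28, and 0.58 on the LIM arrays. HER replicate 2 stood above the other 7 arrays, as it did for CHRNA1. The HER mean of 0.99 ± 0.58 (SD, n = 4) was called (limma adjusted p = 0.0154), and the LIM mean of 0.49 ± 0.32 (SD, n = 4) was not (limma adjusted p = 0.108), although it passed without HER replicate 2 (limma adjusted p = 0.0367). The probe measured here belongs to a transcript record other than the one in the table of the study. For that other transcript the study gives larger fold changes, higher in both beef breeds and within its thresholds. No probe of that transcript was matched to HOMER1 here, so the rank and the LIM result above hold for the probe read alone.

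The difference between LIM and HER was then tested in the same fit, as LIM minus HER. For none of the 8 genes was it called (0 of 8 with limma after adjustment, against 0.233% of all probes). With unadjusted limma p up to 0.05, 1 of 8 passed, ERBB3, against 14.1% of all probes, and the methods' t-test gave 0. The difference was 0.89 with an SE of 0.33 for ERBB3 (limma adjusted p = 0.262) and 0.79 with an SE of 0.49 for CHRND (limma adjusted p = 0.501). For the other genes it lay between -0.50, for HOMER1, and 0.16, for CHRNG. A gene called in LIM and not in HER, or the reverse, was therefore not shown to differ between the breeds, and slide and dye orientation go with breed in this difference.

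Array by array, the median over the 8 genes was lowest on LIM replicate 2, at 0.62, and highest on HER replicate 2, at 1.86. The log2 ratio of MYOG, the factor that drives terminal differentiation and binds the promoters of subunit genes, was also lowest on LIM replicate 2, at 1.35, but highest on LIM replicate 1, at 2.57. The beef effect of MYOG was 2.05 (limma adjusted p = 0.000122), and that of DES, the intermediate filament of muscle, was 2.69 (limma adjusted p = 0.000170). CHRNG thus stood above both of these muscle genes in beef effect, and the other 7 genes stood below both, as values set side by side with no test. It was not above all muscle genes. Of the tested markers of differentiating muscle given below, ACTA1 (4.70) and MYH3 (4.18) exceeded CHRNG (3.35). ACTC1 and MYL1, both at 3.33, were close to it, and the remaining ones were lower.

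The other genes of the pathway were taken from 6 lists. In the list of clustering genes, which act between MUSK and the receptor, 14 of 24 genes were tested, and CTTN and MACF1 were called higher and FYN lower in both comparisons. MACF1, a crosslinker of microtubules and actin, had means of 0.98 ± 0.28 in LIM and 0.92 ± 0.35 in HER (SD, n = 4 each). Averaged over all its probes, MACF1 had 0.32 and 0.54 and was not called. FYN, a kinase of the Src family, had means of -0.52 ± 0.15 in LIM and -0.64 ± 0.20 in HER (SD, n = 4 each). The actin-binding protein CTTN had 1.11 ± 0.10 in LIM and 0.38 ± 0.24 in HER (SD, n = 4 each). The median beef effect of this list was 0.16, near the -0.04 of all probes. LRP4 and DOK7, the receptor for agrin and the adaptor of MUSK, had no matched probe.

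Among the regulators of receptor genes, 7 of 14 genes were tested, and MYOG, MYF5, MYF6, and CAMK2G were called higher in both comparisons. The myogenic factors MYF5 and MYF6 had beef effects of 1.90 and 1.21, and the kinase CAMK2G had 0.50. MYOD1 had 0.88 ± 0.50 in LIM and 1.12 ± 1.20 in HER (SD, n = 4 each) and was not called in either, though it was called for the beef effect (1.00, limma adjusted p = 0.0193). The median beef effect of the list was 1.00. In the list of the synaptic matrix and membrane, 7 of 18 genes were tested, ANK3 was called higher (beef effect 1.29) and SNTB2 lower (beef effect -0.72) in both. ANK3 encodes an ankyrin that anchors sodium channels, and SNTB2 a syntrophin of the dystrophin complex. The HER call of ANK3 stands on 3 of 4 arrays, as HER replicate 1 was at -0.36. ACHE, the esterase that breaks down acetylcholine, was well above background in 5 of 16 channels and in 0 of the 4 HER channels, so no fold is given, and it was not called. COLQ, the collagen tail of that esterase, and UTRN, the utrophin of the synaptic membrane, had no matched probe. The study itself lists UTRN as higher in both beef breeds.

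Of the neuregulin list, 5 of 15 genes were tested and 0 were called in either comparison by limma after adjustment. At an unadjusted limma p, 2 passed in either comparison and 0 in both, and with the methods' t-test 1 and 0. The median beef effect of this list was -0.09. NRG1, a ligand of ERBB3, had -0.67 ± 1.07 in LIM and -0.86 ± 0.53 in HER (SD, n = 4 each) and was called lower for the beef effect (-0.77, limma adjusted p = 0.0388), and ERBB2 had no matched probe. Of the Homer family and its partners, 6 of 13 were tested, and PPP3CA, the catalytic subunit of calcineurin, was called lower in both, by -0.79 ± 0.23 in LIM and -0.76 ± 0.08 in HER (SD, n = 4 each). HOMER2, a relative of HOMER1 named after its value was seen, was called lower for the beef effect alone (-1.22, limma adjusted p = 0.0372), with LIM arrays on both sides of 0. Among the neuronal and muscarinic receptor genes, 9 of 16 had a probe but only 4 were tested, since the other 5 were well above background in 3 or fewer channels. The median beef effect of these 4 was -0.73. Among the 4, CHRNA3 was well above background in 6 of 16 channels and CHRM2 in 8. The neuronal subunit gene CHRNA4 was called lower in both, with -0.46 ± 0.28 in LIM and -0.57 ± 0.21 in HER (SD, n = 4 each). CHRNA4 was called in neither comparison under the 3 other background settings, with -0.09 to -0.23 in LIM and -0.08 to -0.22 in HER. For the beef effect, 3 genes of the clustering list were called higher and 2 lower, 5 and 0 of the regulators, 2 and 1 of the matrix list, 0 and 1 of the neuregulin list, 0 and 2 of the Homer list, and 0 and 3 of the neuronal and muscarinic list, where 17.7% of all probes were called higher and 20.4% lower. In total, 11 genes of the 6 lists were called in both comparisons, 7 higher and 4 lower, where 16.9% of all probes were called in both. This count fell to 4 without HER replicate 2, to 5 without HER replicate 1, to 6 without LIM replicate 3, and to 7 without HER replicate 3, HER replicate 4, or LIM replicate 1. In the 8 fits that left out 1 array each, MYOG, FYN, PPP3CA, and MACF1 were called in both comparisons every time. MYF5 was called in both in 6 of the 8, SNTB2 in 5, CAMK2G in 3, ANK3, CHRNA4, and MYF6 in 2, and CTTN in 1, with limma adjusted p values of 0.0539 to 0.160 where a call of these genes was lost.

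**Figure D4:**
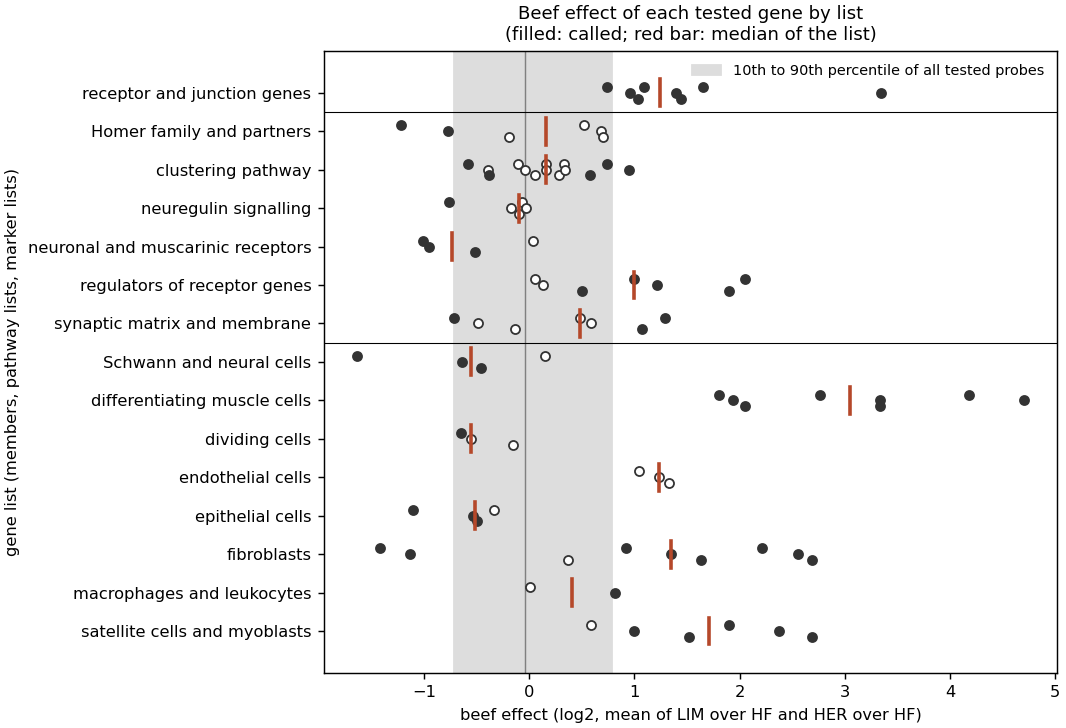
Beef effect (log2, horizontal axis) of each tested gene for the 8 receptor and junction genes, the 6 pathway lists, and the 8 marker lists, with filled points for genes called, a red bar for the median of a list, and grey for the range between the 10th and the 90th percentile of all tested probes. The receptor and junction genes have a median of 1.24 and the differentiating muscle markers one of 3.04. The 4 tested neuronal and muscarinic receptors have one of -0.73, and CHRNA3 and CHRM2 among them were not well above background in every channel.

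Marker genes of other cell types and stages that such cultures can hold were read beside the receptor genes, and their part in the result was not tested. The muscle markers that were called rose with the receptor genes. Fibroblast markers were called in both directions, 4 higher and 1 lower in both comparisons, with a median beef effect of 1.35. The markers of Schwann and epithelial cells that were called fell. Of 14 markers of differentiating muscle, 8 were tested, and all 8 were called higher in both comparisons, with a median beef effect of 3.04. In HER their summed signal was 13678 to 94504, against 1706 to 9501 in the HF channels beside it. In LIM it was 48412 to 102221 against 3006 to 8861. These ranges did not overlap in either comparison, nor did those of the fibroblast markers or of the Schwann and neural markers. Of 10 markers of satellite cells and myoblasts, 6 were tested and 4 were called higher in both, CDH15, DES, ITGA7, and MYF5, with a summed signal of 32870 to 95997 in HER against 11472 to 39486 in HF, and 46759 to 117505 in LIM against 17199 to 59523. MYF5, DES, and CDH15 were well above background in all 16 channels, while PAX7 had no matched probe. Of 10 fibroblast markers, 9 were tested, and COL1A1, COL1A2, COL3A1, and LUM were called higher and PDGFRA lower in both. The fibroblast sum was 279729 to 545962 in HER against 55356 to 155595 in HF, and 363890 to 788543 in LIM against 63593 to 227791. That sum adds the signals of all its probes, so it does not show markers that went the other way. For the beef effect, 6 fibroblast markers were called higher and 2 lower, PDGFRA (-1.42) and TCF21 (-1.13).

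ERBB3 is also expressed in Schwann cells, and some receptors of the neuronal list are found in nerve. Of 11 Schwann and neural markers, 4 were tested, and NGFR was among those called lower in both comparisons, with a summed signal of 3251 to 4449 in HER against 4647 to 7176 in HF and 2314 to 5952 in LIM against 6859 to 9920. Of 8 epithelial markers, 4 were tested, CLDN4 was called lower in both, and EPCAM and ESRP1 were above background in 0 channels, with a sum of 1189 to 1694 in HER against 1649 to 3235 in HF and 627 to 2079 in LIM against 2438 to 3409. Of 6 endothelial markers, 3 were tested and 0 called by limma, with 0 also at an unadjusted p and by the methods' t-test, and sums of 145 to 3593 in HER against 265 to 823 in HF and 345 to 5437 in LIM against 391 to 1365. Of 6 markers of macrophages and leukocytes, 2 were tested and CD68 was called higher in both, with sums of 123 to 326 in HER against 116 to 187 in HF and 228 to 387 in LIM against 187 to 365. Of 8 markers of dividing cells, 3 were tested and 0 called in either comparison by limma, against 1 at an unadjusted p and 1 by the methods' t-test before adjustment, although BUB1 was called lower for the beef effect (-0.65, limma adjusted p = 0.0245), with sums of 1972 to 5183 in HER against 2830 to 6591 in HF and 3296 to 7402 in LIM against 4160 to 8261.

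For each of the 4 genes called in both comparisons, the named genes with the most similar pattern over the 8 arrays were looked up among 6755 named genes, by the Pearson correlation of the log2 ratio. These values are descriptions of 8 arrays that fall into 2 slides, with no test. CHRNE was matched most closely by LAMP1, CTSA, and CYB5R3, all at r = 0.99, and these had beef effects of 2.38, 2.22, and 2.70. CHRNA1 was nearest to TAF13, PYROXD2, and PLA2G12A, each at r = 0.95. CHRNB1 was nearest to RNF146 (r = 0.97), TAF8 (r = 0.95), and NPEPPS (r = 0.92). CHRNG was nearest to RDH12, PPP3CB, and RPL30, with r of 0.93, 0.93, and 0.92, and their beef effects of -0.58, 0.20, and 0.01 were far from the 3.35 of CHRNG.

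The size of the ratios depended on the background step, while their direction did not. Under 5 other ways of making the ratio, the mean of every gene remained above 0 in both comparisons. Scaling the arrays, which is among these, cannot turn a sign. CHRNG ranged from 2.83 to 3.44 in LIM and from 1.61 to 3.77 in HER over all 16 alternatives that kept every array, and CHRNB1 from 1.23 to 1.71 and from 0.54 to 1.81. With normexp on local backgrounds as measured, 0 probes of the whole array were called in HER by limma after adjustment, so the HER calls of all 6 genes, and of every pathway gene named, were lost there. The HER mean of MYOG was 1.08 under that setting, that of MYF5 0.67, that of MYF6 0.26, that of ANK3 0.15, and that of CAMK2G 0.14. On HER replicate 3, 38 spots had a red local background above 500, and the SD of its log2 ratios was 0.28 under that setting, against 0.81 in the ratio of the scanner software.

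**Figure D5:**
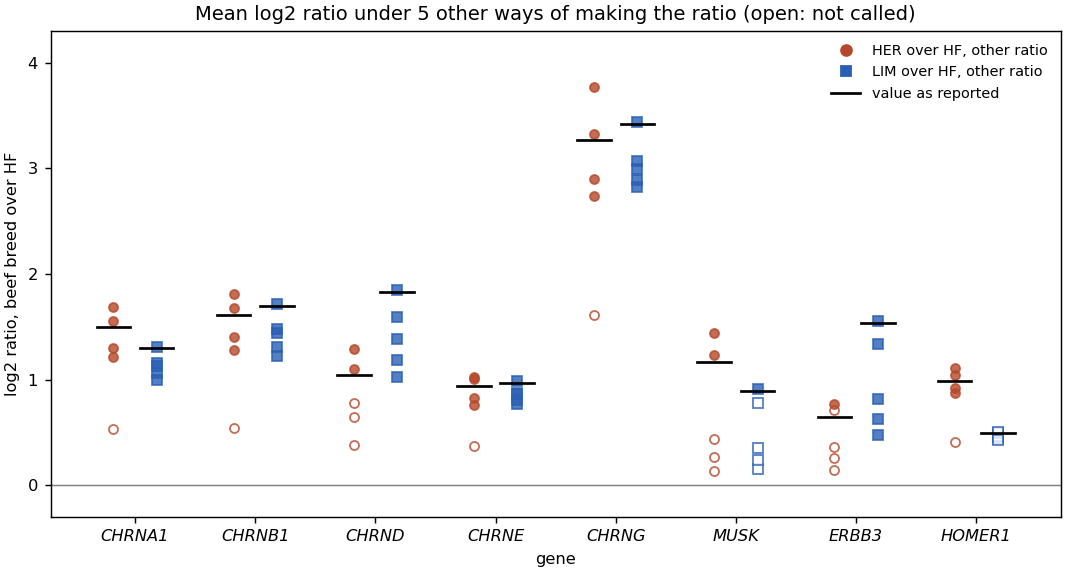
Mean log2 ratio of beef breed over HF (vertical axis) for each gene, as reported (black line) and under 5 other ways of making the ratio from the spots, with circles for HER, squares for LIM, and open symbols where the gene was not called. All values lie above 0, and the lowest HER values of the subunits, from 0.37 for CHRNE to 1.61 for CHRNG, come from normexp with local backgrounds as measured.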

How the data were processed

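The cells of 4 bulls per breed were compared on 8 two-colour arrays of 44407 spots, 4 of HER and 4 of LIM, each against HF. Breed, dye, and replicate number were read from the titles in the sample labels. Per the file headers, the authors scanned the arrays with Feature Extraction 10.7.3.1 (array design 015354, genomic build Btau 3.1) and deposited spot intensities in both dyes, spot and background flags, and the log10 of the red to green ratio, which that software computes once it has subtracted background and normalized the dyes. The deposited series table holds the same log10 ratio (largest difference 0), so it gave no separate setting. A ratio of exactly 0 occurs at some of the spots where neither channel is well above background, and at no other spots.

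Here the log10 ratio was turned to the log2 ratio of beef breed over HF, with the sign turned on the HER arrays. Spots flagged as outliers were dropped along with controls, and the remaining spots of each probe were averaged. None was saturated. A probe was tested if 4 or more of its 16 channels were well above background, which 17631 of 21475 probes were. One limma fit (limma 3.58.1, R 4.3.3) held all 8 arrays with a mean for LIM and a mean for HER, and gave the beef effect as their average, which equals the effect in a model with a dye term, and LIM minus HER. The methods of the study used a t-test at an unadjusted p of at most 0.05 with a fold change of at least 1.3. Here p was adjusted (Benjamini-Hochberg, 0.05) over all tested probes with the same fold change, and the former was run as an alternative. Log2 ratios of subunit genes were compared with an exact sign-flip permutation test over arrays.

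Genes were named through RefSeq accessions of assembly ARS-UCD2.0, with 7793 of 20693 accessions matched. That assembly is not the build of the array design, so no coordinates are given. A gene with several probes was read by its brightest. Named are the 10 genes, the genes of each pathway list called in both comparisons with LRP4, DOK7, COLQ, ACHE, UTRN, and ERBB2, the 3 most similar genes, and MYOG and DES. The genes and lists were chosen with earlier results of these data known. Some members of the Schwann and neural marker list are not reported here. In the HF channel 73.9% to 78.0% of probes were well above background, and in the beef channel 68.8% to 85.2%. Precision is limited by 4 arrays per comparison, for which an exact sign-flip test cannot go below 0.125. The fits were tested on simulated data.

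The alternatives changed how background was corrected and arrays were normalized, which dim probes and outlier spots entered, the array weights, the thresholds, and the test (the methods' t-test, separate fits, a replicate block). Others averaged all probes of a gene or omitted 1 array at a time.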

Additional observations from a re-analysis of the deposited data

Results flagged for a closer look

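In groups of 4 arrays, the highest or lowest array was compared with the others for the 20 named genes, which makes 40 groups, of which chance alone sets apart about 5%. Here 2 groups had an array that stood apart, and both involve HER replicate 3. CHRNA4 had a log2 ratio of -0.25 there, while the remaining HER values were -0.64 to -0.70, a gap of 0.85 of the whole range. FYN had -0.34 there and -0.71 to -0.78 on the remaining 3 HER arrays, a gap of 0.83 of the range. Both genes are from the pathway lists, and no array stood apart by this measure for the 8 receptor and junction genes. HER replicate 3 is also the array with 38 spots of high red local background. The part of that background in these 2 values was not tested.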

How the results depend on the processing

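Of 24 alternatives, 23 give a beef effect (fitting each comparison alone does not). For the 8 receptor and junction genes these gave 184 values, of which 184 were above 0. Most alternatives reuse the same ratios, which were above 0 on every array for each gene, so the sign was fixed there. Only the other background settings and centring could have turned a sign. Of the 184 values, 181 were called. The exceptions were MUSK under both normexp settings and ERBB3 with normexp on local backgrounds as measured. That last setting left 0 genes called in HER and 0 in both comparisons, and 0 of the pathway genes in both. With the methods' t-test after adjustment, 0 genes were called in LIM, 0 in HER, 0 in both, and 0 of the pathway genes, while its unadjusted form gave 7 in LIM and 6 in HER. At the methods' threshold with limma, 7 genes were called in both and 1 in LIM minus HER. Pathway genes called in both numbered 7 at 1.5-fold and 6 with each comparison fitted alone. Among called probes in HER, 42.6% were higher, against 52.0% after centring, 54.8% with normexp and replaced backgrounds, and 55.1% without background correction. Leaving out 1 array gave 6 to 7 genes called in LIM, 4 to 8 in HER, 4 to 6 in both, 8 for the beef effect, 4 to 12 pathway genes, and 4 to 5 subunit pairs. These counts, and those with the replicate block below, are not set beside the share of all probes called under the same setting.

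LIM minus HER, called for none of the genes, changed sign for CHRNA1 (0.46), MUSK (0.018), and HOMER1 (0.028) with normexp on backgrounds as measured, for CHRNE (-0.016) after centring, and for CHRNB1 (-0.33), CHRNE (-0.16), and CHRNG (-0.77) with arrays scaled. The difference of CHRNA1 minus CHRND, -0.04 as reported and not called, became 0.063, 0.22, and 0.15 with normexp as measured, with normexp and replaced backgrounds, and without background correction. Leaving out 1 array gave -0.23 to 0.20 for that pair and, for LIM minus HER, -0.41 to 0.043 for CHRNA1, -0.16 to 0.43 for CHRNB1, -0.13 to 0.22 for CHRNE, and -0.14 to 0.54 for CHRNG. The causes were not tested.

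Whether the replicate number pairs the samples is not known. Correlations between LIM and HER arrays of the same number were -0.24, 0.13, 0.30, and 0.54. Those between arrays of different numbers ranged from -0.47 to 0.40, so these values do not settle it. With the replicate block, 6 genes were called in LIM, 7 in HER, 5 in both, 8 for the beef effect, 0 for LIM minus HER, and 9 pathway genes in both. CHRND in HER was gained (limma adjusted p = 0.0295). The block could not be used in the test of subunit pairs, in which both genes come from the same array, nor could array weights or thresholds on p of the fit.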
